A study of Mus musculus with 6 samples.

Results

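The contractile unit of heart muscle, the sarcomere, is built from proteins that exist in alternative forms encoded by separate genes, and 9 genes for such forms were followed in mouse hearts. They are Myh7, Myh6 and Myh7b (myosin heavy chains of the thick filament), Acta1 and Actc1 (sarcomeric alpha-actins), Tnni1 and Tnni3 (troponin I), and Tpm2 and Tpm1 (tropomyosins). The genes were taken by symbol from the authors' gene table and make up 9 of the 51888 rows of the count table. They form 4 pairs in which the form prominent in the rodent fetal heart is set over the form that predominates in the adult heart, Myh7 over Myh6, Acta1 over Actc1, Tnni1 over Tnni3 and Tpm2 over Tpm1. Myh7b stands outside the pairs.

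Hearts of 3 knockout mice (L/L, cre) were compared with hearts of 3 control mice (L/L), all C57BL/6. Both groups carry Elac2 with a loxP-flanked exon, and the knockouts also carry cre driven by a muscle creatine kinase promoter, which acts in striated muscle, so other cells of the heart are not its target. The controls are given as Elac2 +/+ in the genotype label, although their title names the floxed alleles, and no label field spells out an age or sex. Elac2 encodes RNase Z, the enzyme that trims the 3' ends of transfer RNA precursors in the nucleus and mitochondria. Total RNA of whole hearts was sequenced, so atria and ventricles were not separated, and no label states how much atrium each library held. Fewer cells of a type cannot be told apart from less RNA per cell. Each library is 1 mouse, and the p-values measure only the spread between these mice.

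In the rodent heart the balance of these forms changes around birth. Myh7 encodes the slow beta myosin heavy chain of the fetal ventricle, and Myh6 the faster alpha chain that takes over after birth under thyroid hormone. Skeletal alpha-actin from Acta1 and slow skeletal troponin I from Tnni1 likewise give way to cardiac alpha-actin from Actc1 and cardiac troponin I from Tnni3. In adult rodents a return of Myh7 and Acta1 RNA is a widely used sign of a heart under load or in failure.

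The libraries held 14461110, 13641345 and 9850100 counts in knockouts and 14276410, 12553384 and 12057962 counts in controls. Mitochondrial-encoded RNA took 33.3% to 36.7% of counts in knockouts and 49.3% to 61.1% in controls. Levels below are CPM, counts relative to a library size scaled by TMM, which sets each library by the bulk of its genes. Elac2 fell to 5.84 ± 0.61 CPM in knockouts, against 14.0 ± 1.02 CPM in controls (SD, n = 3 each). In the edgeR quasi-likelihood test, with Benjamini-Hochberg adjustment over 14302 genes, its log2 fold change was -1.27 (SE 0.15) at an adjusted p = 0.00021. The counts are per gene and are not split by exon or cell type, so what the remaining Elac2 RNA consists of was not tested. Without Nppa, set aside after its values were seen, summed atrial marker RNA was lowest in knockout 2 and control 2 within their groups. The summed level of 8 atrial markers other than Nppa was 476, 314 and 509 CPM in knockouts 1 to 3 and 752, 188 and 756 CPM in controls 1 to 3. With Nppa the sum was 3421, 4891 and 3475 CPM in those knockouts and 1503, 381 and 1567 CPM in those controls. Knockout 2 was then the highest knockout. Not every single marker followed the sum without Nppa, with Sln and Stard10 lowest in knockout 1 among the knockouts. Nr2f2 was lowest in knockout 3 among the knockouts and highest in control 2 among the controls. Bmp10 alone was at 146, 7.37 and 84.8 CPM in knockouts 1 to 3 and 115, 0.44 and 186 CPM in controls 1 to 3. Myl4 was at 185, 185 and 194 CPM in those knockouts and 272, 75.1 and 234 CPM in those controls.

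The 3 myosin heavy chain genes each host a microRNA in an intron, and these mature sequences are shown because they tie the transcription of each host to a regulator of the same family. They come from RefSeq on GRCm38.p6, which is the mm10 build, and capitals mark the seed, bases 2 to 8. The first is hosted by Myh6 at chr14:54949072-54949093 on the minus strand, the second by Myh7 at chr14:54975710-54975731 on the minus strand, and the third by Myh7b at chr2:155622893-155622913 on the plus strand.
mmu-miR-208a-3p: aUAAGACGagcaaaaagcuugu
mmu-miR-208b-3p: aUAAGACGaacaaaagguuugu
mmu-miR-499-5p: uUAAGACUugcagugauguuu
The Myh6 and Myh7 microRNAs share their seed at 7 of 7 bases and are identical at 19 of 22 positions, and the Myh7b microRNA matches their seed at 6 of 7 bases. Mature microRNAs were not measured by these libraries.

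The 2 genes with the highest fold changes among the 9, Myh7 and Acta1, have the following 250 bases before a RefSeq start (GRCm38.p6), both on the minus strand and written in the direction of transcription. The Myh7 stretch is chr14:54994627-54994876 and the Acta1 stretch is chr8:123894776-123895025. Capitals mark matches to the MCAT element (CATTCC on either strand, read as GGAATG on the other), the CArG box and the TATA box (TATAAA).
Myh7: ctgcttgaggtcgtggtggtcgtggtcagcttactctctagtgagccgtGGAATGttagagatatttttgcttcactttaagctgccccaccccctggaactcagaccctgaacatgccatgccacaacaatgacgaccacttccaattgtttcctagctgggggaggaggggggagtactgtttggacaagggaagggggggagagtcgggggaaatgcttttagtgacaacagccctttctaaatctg
Acta1: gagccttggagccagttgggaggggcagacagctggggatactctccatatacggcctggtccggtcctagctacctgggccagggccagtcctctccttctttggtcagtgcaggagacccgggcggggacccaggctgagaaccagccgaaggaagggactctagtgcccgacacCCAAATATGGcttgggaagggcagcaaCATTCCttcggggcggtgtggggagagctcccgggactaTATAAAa
In this window the MCAT match of Myh7 begins 201 bases before the start, the more upstream of 2 Myh7 starts in the RefSeq table, and the window of the other start has no MCAT match. In Acta1 the CArG box begins 73, the MCAT match 46 and the TATA match 7 bases before the start. No 2 of these matches overlap. Searched on both strands over the 300 bases around each start, an MCAT match was present in 14.7%, a CArG box in 1.63% and a TATA match in 13.6% of 32851 promoters. MCAT matches were also present at Myh6 and Tpm1, and a CArG box at Actc1. TATA matches were present at Myh6 and Actc1, beginning 1 and 33 bases after the start. Tnni1, Tnni3, Tpm2 and Myh7b had none of the 3 in this window. These matches describe the letters and not binding.

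All 9 genes had enough counts to be tested. Of these, 3 rose (Myh7, Acta1 and Tnni1), 3 fell (Myh6, Myh7b and Actc1) and 3 did not pass the test (Tnni3, Tpm2 and Tpm1). Over all 14302 genes tested 36.5% changed, 18.7% higher and 17.8% lower. The same 3 genes had every knockout above every control and the same 3 every knockout below every control, while 26.2% of all tested genes were separated in the higher and 24.5% in the lower direction. The median log2 fold change was -0.37 over the 9 genes and -0.01 over all genes tested. The same 6 genes passed in the authors' deposited table, where 27.6% of 16267 genes did.

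The scaling bears on these values. With library size alone in place of TMM, the median of all tested genes moved to a log2 fold change of 0.68. Myh7, Acta1 and Tnni1 then stood at 4.07, 4.01 and 2.60, and Myh6 and Myh7b at -0.62 and -1.59, and these 5 were still called. Actc1 was not, and Tnni3, Tpm2 and Tpm1 had positive values of 0.30, 0.27 and 0.50 without a call.

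**Figure D1:**
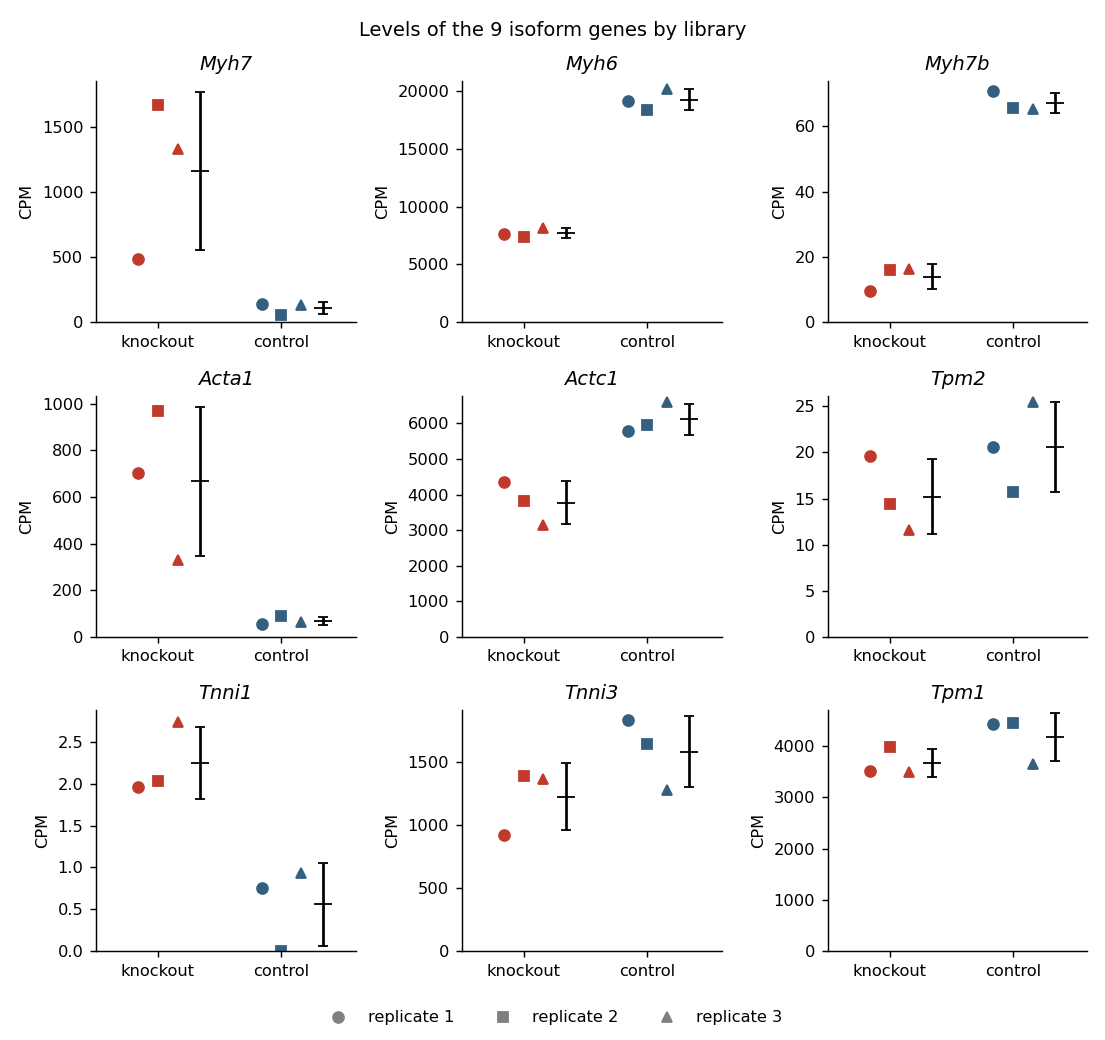
Level of each of the 9 genes in each library (CPM, linear axes from 0), knockouts in red left of controls in blue, with each point 1 mouse, its shape the replicate number, and the black bar the group mean ± SD. Myh7, Acta1 and Tnni1 lie higher and Myh6, Myh7b and Actc1 lower in all 3 knockouts, and the groups overlap for Tnni3, Tpm2 and Tpm1.

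Myh7 (ENSMUSG00000053093.15, chromosome 14, 54970684 to 54994626 in mm10, minus strand) and Acta1 had the 2 largest fold changes of the 9. Myh7 had 9171, 28761 and 16521 counts in knockouts 1 to 3 and 1883, 469 and 1134 counts in controls 1 to 3. Its level was 487, 1670 and 1330 CPM in those knockouts and 142, 52.1 and 132 CPM in the controls. The lowest knockout lay above the highest control, but the knockouts differed 3.43-fold among themselves. The group levels were 1162 ± 609 CPM in knockouts and 109 ± 49.1 CPM in controls (SD, n = 3 each), a 10.7-fold difference (log2 fold change 3.42, SE 0.48, edgeR adjusted p = 0.00059). The highest knockout and the lowest control were also the libraries with the lowest sum of atrial markers other than Nppa in their groups. Without both libraries, the log2 fold change of Myh7 was 2.73 (edgeR adjusted p = 0.0080). Whether the amount of atrial tissue bears on the Myh7 levels was not tested.

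Myh6 (ENSMUSG00000040752.15, chromosome 14, 54941921 to 54966927, minus strand) is the neighbour of Myh7, 3757 bases away and read in the same direction. Its level was 7613, 7348 and 8177 CPM in knockouts 1 to 3 and 19177, 18402 and 20235 CPM in controls 1 to 3. All knockouts were lower than all controls, and the knockouts lay within 1.11-fold of each other, a much narrower spread than that of Myh7. Myh6 fell to 7712 ± 423 CPM in knockouts, against 19271 ± 920 CPM in controls (SD, n = 3 each), which is 2.50-fold lower (log2 fold change -1.32, SE 0.20, edgeR adjusted p = 0.00081). Without knockout 2 and control 2 together its log2 fold change was -1.32 with an adjusted p = 0.0545, with 2 mice left in each group.

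Myh7b (ENSMUSG00000074652.3, chromosome 2, 155611212 to 155634307, plus strand) encodes a slow-type myosin heavy chain of low abundance in heart. It had 181, 275 and 201 counts in knockouts and 941, 591 and 561 counts in controls. Each knockout was below each control. Myh7b fell to 13.9 ± 3.74 CPM in knockouts, against 67.2 ± 3.11 CPM in controls (SD, n = 3 each), 4.85-fold lower (log2 fold change -2.28, SE 0.19, edgeR adjusted p = 0.000028). The 3 myosin heavy chain genes therefore did not move together, with Myh7 higher and both others lower.

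Set against each other within a library, which needs no scaling between libraries, Myh7 gave 63.9, 227 and 163 reads per 1000 Myh6 reads in knockouts 1 to 3. In controls 1 to 3 it gave 7.39, 2.83 and 6.51 reads per 1000. The groups were far apart and did not overlap. The means were 151 ± 82.3 in knockouts and 5.58 ± 2.42 in controls (SD, n = 3 each), a difference of 4.69 on the log2 scale (SE 0.70) or 25.9-fold in the geometric mean. Without knockout 2 and control 2 together the log2 difference was 3.88. A two-sided exact permutation test gave p = 0.1, which 3 against 3 cannot go below, and 0.133 after Benjamini-Hochberg adjustment over the 4 ratios. Myh7 was still the minor form in every library, at 12.8 ± 6.33% of the reads of the pair in knockouts and 0.554 ± 0.239% in controls. Corrected for exon length, the ratio was 118 per 1000 in knockouts and 4.35 per 1000 in controls.

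The gain of Myh7 was small beside the fall of Myh6. Mean Myh7 was higher by 1054 CPM and mean Myh6 differed by -11559 CPM. The sum of both was 8100, 9018 and 9507 CPM in knockouts and 19318, 18454 and 20367 CPM in controls. No knockout reached the lowest control. The summed level was 8875 ± 714 CPM in knockouts and 19380 ± 958 CPM in controls (SD, n = 3 each), 2.19-fold lower (log2 difference -1.13, SE 0.08, two-sided exact permutation p = 0.1, the smallest possible). With library size alone as the scaling that log2 difference was -0.42.

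Part of the Myh7 and Myh6 sequence is shared. Of the 50-base stretches of annotated Myh7 transcripts 15.6% also occur in Myh6, and 20.2% of those of Myh6 also occur in Myh7. How reads from such stretches were assigned is not stated, so the split between the pair is uncertain by an amount that was not tested.

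**Figure D2:**
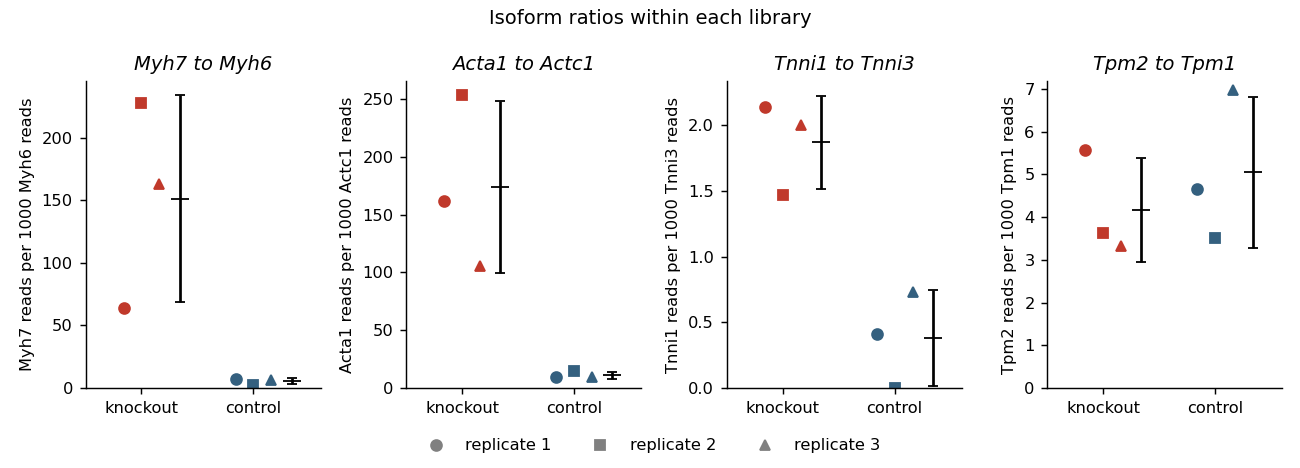
Reads of the first gene per 1000 reads of the second gene of each pair in each library (linear axes from 0), knockouts in red left of controls in blue, with each point 1 mouse and the black bar the group mean ± SD. The knockouts lie above the controls for Myh7 over Myh6, Acta1 over Actc1 and Tnni1 over Tnni3, and the groups overlap for Tpm2 over Tpm1.

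Acta1 (ENSMUSG00000031972.5, chromosome 8, 123891769 to 123894751, minus strand) had 13229, 16702 and 4114 counts in knockouts 1 to 3 and 737, 793 and 526 counts in controls 1 to 3. In CPM the knockouts were at 702, 970 and 331 and the controls at 55.4, 88.1 and 61.1. Every knockout was above every control, and the knockouts differed 2.93-fold among themselves, with knockout 3 the lowest. Acta1 rose to 668 ± 321 CPM in knockouts, against 68.2 ± 17.5 CPM in controls (SD, n = 3 each), 9.80-fold (log2 fold change 3.29, SE 0.36, edgeR adjusted p = 0.00015). The order of the knockouts was not that of Myh7, for which knockout 1 was the lowest.

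Actc1 (ENSMUSG00000068614.7, chromosome 2, 114047282 to 114053548, minus strand) was at 4343, 3830 and 3131 CPM in knockouts 1 to 3 and 5796, 5951 and 6608 CPM in controls 1 to 3. The groups did not overlap. Actc1 fell to 3768 ± 608 CPM in knockouts, against 6118 ± 431 CPM in controls (SD, n = 3 each), 1.62-fold lower (log2 fold change -0.70, SE 0.19, edgeR adjusted p = 0.0178). This call is the least secure of the 6. The adjusted p was 0.061 without control 2, 0.057 without control 3, 0.0609 without knockout 2 and 0.063 without knockout 3. With library size alone the log2 fold change was 0.01.

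Acta1 gave 162, 253 and 106 reads per 1000 Actc1 reads in knockouts 1 to 3 and 9.57, 14.8 and 9.25 in controls 1 to 3. The lowest knockout was well above the highest control. The means were 174 ± 74.4 in knockouts and 11.2 ± 3.12 in controls (SD, n = 3 each), a log2 difference of 3.90 (SE 0.42), or 14.9-fold, with a two-sided exact permutation p = 0.1, the smallest possible. Acta1 made up 14.6 ± 5.35% of the reads of the pair in knockouts and 1.11 ± 0.305% in controls. As with the myosins the minor form gained less than the major form lost, 599 CPM for mean Acta1 against a difference of -2350 CPM for mean Actc1. The sum of both was 4436 ± 852 CPM in knockouts and 6187 ± 428 CPM in controls (SD, n = 3 each), a log2 difference of -0.50 (SE 0.18, two-sided exact permutation p = 0.1) that turned to 0.21 with library size alone. Only 2.02% of the 50-base stretches of Acta1 and none of Actc1 occur in another gene.

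Tnni1 (ENSMUSG00000026418.16, chromosome 1, 135779434 to 135810989, plus strand) was near the limit of detection. It had 37, 35 and 34 counts in knockouts and 10, 0 and 8 counts in controls. All knockouts were above all controls. Its level was 2.24 ± 0.43 CPM in knockouts and 0.56 ± 0.49 CPM in controls (SD, n = 3 each). The log2 fold change was 1.93 (SE 0.54, edgeR adjusted p = 0.0193). The call was lost without control 1 (adjusted p = 0.0515) and without knockout 2 and control 2 together (adjusted p = 0.0518).

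Tnni3 (ENSMUSG00000035458.15, chromosome 7, 4518305 to 4524229, minus strand) was at 918, 1385 and 1366 CPM in knockouts and 1826, 1635 and 1274 CPM in controls. The groups overlapped, with control 3 below knockouts 2 and 3. Its log2 fold change was -0.37 (SE 0.21, edgeR adjusted p = 0.193). Tnni1 gave 2.14, 1.47 and 2.0 reads per 1000 Tnni3 reads in knockouts 1 to 3 and 0.412, 0 and 0.729 in controls 1 to 3. The 95% Wilson interval was 1.55 to 2.95 for knockout 1, 1.06 to 2.04 for knockout 2 and 1.43 to 2.80 for knockout 3. That for control 3 was 0.369 to 1.44, which overlaps those of knockouts 2 and 3. The 0 of control 2 allows up to 0.204 per 1000, at 3 counts. With 0.5 added to each count of the pair, the log2 difference was 3.06 (SE 1.40, two-sided exact permutation p = 0.1). It was 1.69 without control 2, so its size rests on that library. Cardiac troponin I was the form of the pair in nearly all reads of both groups, with a Tnni1 share of 0.187 ± 0.0353% in knockouts and 0.0380 ± 0.0365% in controls.

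The tropomyosin pair did not follow the other 3. Tpm2 (ENSMUSG00000028464.16, chromosome 4, 43514711 to 43523765, minus strand), which encodes beta-tropomyosin, was at 19.6, 14.5 and 11.6 CPM in knockouts and 20.6, 15.7 and 25.4 CPM in controls. Tpm1 (ENSMUSG00000032366.15, chromosome 9, 67022590 to 67049406, minus strand), which encodes alpha-tropomyosin, was at 3516, 3987 and 3496 CPM in knockouts and 4426, 4452 and 3645 CPM in controls. The groups overlapped for both genes. The log2 fold changes were -0.43 for Tpm2 (SE 0.22, edgeR adjusted p = 0.153) and -0.19 for Tpm1 (SE 0.18, edgeR adjusted p = 0.436). Without knockout 1, Tpm2 was called lower (log2 fold change -0.65, adjusted p = 0.0201).

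Tpm2 gave 5.57, 3.63 and 3.32 reads per 1000 Tpm1 reads in knockouts 1 to 3 and 4.66, 3.52 and 6.98 in controls 1 to 3. The knockouts lay inside or just below the range of the controls. The means were 4.17 ± 1.22 in knockouts and 5.05 ± 1.76 in controls (SD, n = 3 each), a log2 difference of -0.26 (SE 0.37, two-sided exact permutation p = 0.6). Of the 4 fetal-type forms, Tpm2 was thus the one that did not pass the test as higher. The sums of the troponin I pair and of the tropomyosin pair had log2 differences of -0.38 and -0.19 with overlapping groups (two-sided exact permutation p = 0.3 and 0.2).

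Per kilobase of exon the order of the genes by level was nearly the same in both groups. In knockouts Actc1 stood first at 2329 ± 376 CPM per kilobase, then Myh6 at 1147 ± 63.0. Tnni3 at 593 ± 128, Tpm1 at 565 ± 42.8 and Acta1 at 435 ± 209 followed, with Tpm1 overlapping both the others. Myh7 at 135 ± 70.7 was below them in knockouts, above Tpm2, Myh7b and Tnni1 at 5.23 ± 1.39, 2.10 ± 0.56 and 0.623 ± 0.119. In controls Actc1 at 3781 ± 266, Myh6 at 2865 ± 137, Tnni3 at 765 ± 136 and Tpm1 at 644 ± 70.8 CPM per kilobase were followed at a distance by Acta1 at 44.4 ± 11.4. Myh7 at 12.6 ± 5.70 overlapped Myh7b at 10.1 ± 0.47 there, and Tpm2 at 7.07 ± 1.68 and Tnni1 at 0.156 ± 0.137 came last. Tnni3 and Tpm1 overlapped in controls too. Acta1 thus overlapped Tpm1 in knockouts and was far below it in controls, and Tpm2 stood above Myh7b in knockouts and below it in controls.

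The loci of the members were searched for other annotated genes that overlap them or lie within 10 kb, which gave 26 pairs of a member and a neighbour, 18 of them with at least 10 counts for the neighbour. No source here states a strand setting for counting, so an antisense gene and its partner cannot be told apart by their reads. Mhrt, an RNA read antisense to Myh7, fell, with 285, 200 and 233 counts in knockouts and 909, 681 and 793 counts in controls. Each knockout was below each control (log2 fold change -2.38, SE 0.18, edgeR adjusted p = 0.000021), the opposite direction to the Myh7 gene that it overlaps. The other antisense gene at Myh7, Gm29015, and the overlapping Gm17428 also fell, by 2.22 (SE 0.28) and 2.75 (SE 0.33) on the log2 scale. Of the transcript stretches compared above, 3.41% of those of Myh7 and 3.02% of those of Myh6 also occur in Mhrt. In Gm29015, 0.365% of the Myh6 stretches occur. These are shares of the longer myosin transcripts. In number, 207 Myh6 stretches occur in Mhrt, which has 1214 bases of exon, and 25 in Gm29015, which has 207 bases of exon. Myh6 was far more abundant than Mhrt and Gm29015 and fell too. Whether its reads entered their counts was not tested. The Mir208a host stretch within Myh6 had 20, 16 and 10 counts in knockouts and 15, 21 and 23 counts in controls, a log2 fold change of -1.06 (SE 0.37, edgeR adjusted p = 0.0448). In CPM these are 1.06, 0.93 and 0.81 in knockouts and 1.13, 2.33 and 2.67 in controls, and reads of the Myh6 intron that contains it cannot be told apart from its own. Mir208b within Myh7 had 0, 1 and 3 counts in knockouts and 0 in each control, and Mir499 within Myh7b had 0 in each knockout and 0, 1 and 1 in controls, too few to test.

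At the actin loci, Gm45891, antisense and 1522 bases from Acta1, had 14, 16 and 15 counts in knockouts and 0, 0 and 1 in controls (edgeR adjusted p = 0.0017), which is the direction of Acta1. A530058N18Rik, on the strand opposite to Actc1 and overlapping it, fell by 1.06 on the log2 scale (SE 0.18, edgeR adjusted p = 0.0016), and the nearby C130080G10Rik fell by 0.97 (SE 0.17). At Tnni3, the overlapping Dnaaf3 on the same strand fell by 1.89 (SE 0.29, edgeR adjusted p = 0.00086), while Tnnt1, slow skeletal troponin T, had a log2 fold change of -0.67 (SE 0.27, edgeR adjusted p = 0.0722) that did not pass. Trpc4ap, which overlaps Myh7b, had -0.10, Nup133 near Acta1 had 0.09, Lad1 near Tnni1 had -0.65 and Tln1 near Tpm2 had 0.24, none of which passed. Gm12454 near Tpm2 had 31 counts in all and was not tested.

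Among 7121 protein-coding genes with at least 10 CPM on average, Tbc1d16, Egln1 and Kcnq1 had the profiles over the 6 libraries most like that of Myh6, at root mean square differences of 0.07, 0.08 and 0.08 on the log2 scale. Kcnq1 encodes a cardiac potassium channel and Egln1 an oxygen-sensing prolyl hydroxylase. Their log2 fold changes were -1.32, -1.36 and -1.37. For Myh7 no gene came so close. Eda2r, Nppa and Cyb5r1 were nearest at 0.61, 0.63 and 0.69, with Nppa, the atrial natriuretic peptide gene that is re-expressed in loaded ventricles, at 2945, 4577 and 2966 CPM in knockouts and 751, 193 and 811 CPM in controls. Like Myh7, Nppa was highest in knockout 2 and lowest in control 2. The likeness that picked Nppa uses these same levels, so this is no separate result.

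Of 20 other thick filament isoforms and partners 11 were tested, of which 2 rose, 1 fell and 8 did not pass, against 36.5% changed among all genes tested, with a median log2 fold change of -0.17. Myh8, the perinatal skeletal heavy chain, had 23, 19 and 9 counts in knockouts and 2, 1 and 1 counts in controls (log2 fold change 2.92, SE 0.50, edgeR adjusted p = 0.0017), and sequence it may share with other heavy chains was not examined. Myl1, an essential light chain of fast skeletal muscle, was at 54.0, 60.3 and 54.7 CPM in knockouts and 38.2, 19.4 and 33.2 CPM in controls (log2 fold change 0.89, SE 0.21, edgeR adjusted p = 0.0079). Its 3 knockouts were all above its controls, and its call was lost without knockout 2 and control 2 together (adjusted p = 0.0548). Mybpc2, fast skeletal myosin-binding protein C, fell by 1.31 (SE 0.31, edgeR adjusted p = 0.0082), a call lost with library size alone and without knockout 2 and control 2 together. The ventricular light chains Myl2 and Myl3, chosen after their values were seen, had -0.39 each and did not pass.

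Of 16 other thin filament isoforms and partners 13 were tested, none rose, 5 fell and 8 did not pass, beside the 17.8% of all genes that fell, with a median log2 fold change of -0.40. Acta2, smooth muscle alpha-actin, fell to 95.6 ± 16.9 CPM in knockouts, against 299 ± 49.0 CPM in controls (SD, n = 3 each, log2 fold change -1.65, SE 0.17, edgeR adjusted p = 0.00011). This alpha-actin thus moved opposite to Acta1. Acta2 is also one of 9 smooth muscle markers, of which Mylk, Smtn and Synpo2 fell too, Cnn1 rose and 4 did not pass. Tmod4, a capping protein of thin filament ends, fell by 2.41 (SE 0.36), its relative Tmod1 by 0.73 (SE 0.12), and the filament-elongating leiomodin Lmod3 by 0.62 (SE 0.14). Tmod1 and Lmod3 were no longer called with library size alone, and Lmod3 turned to 0.08. Cardiac troponin T (Tnnt2) and troponin C (Tnnc1), chosen after their values were seen, had -0.27 and -0.23 and did not pass.

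**Figure D3:**
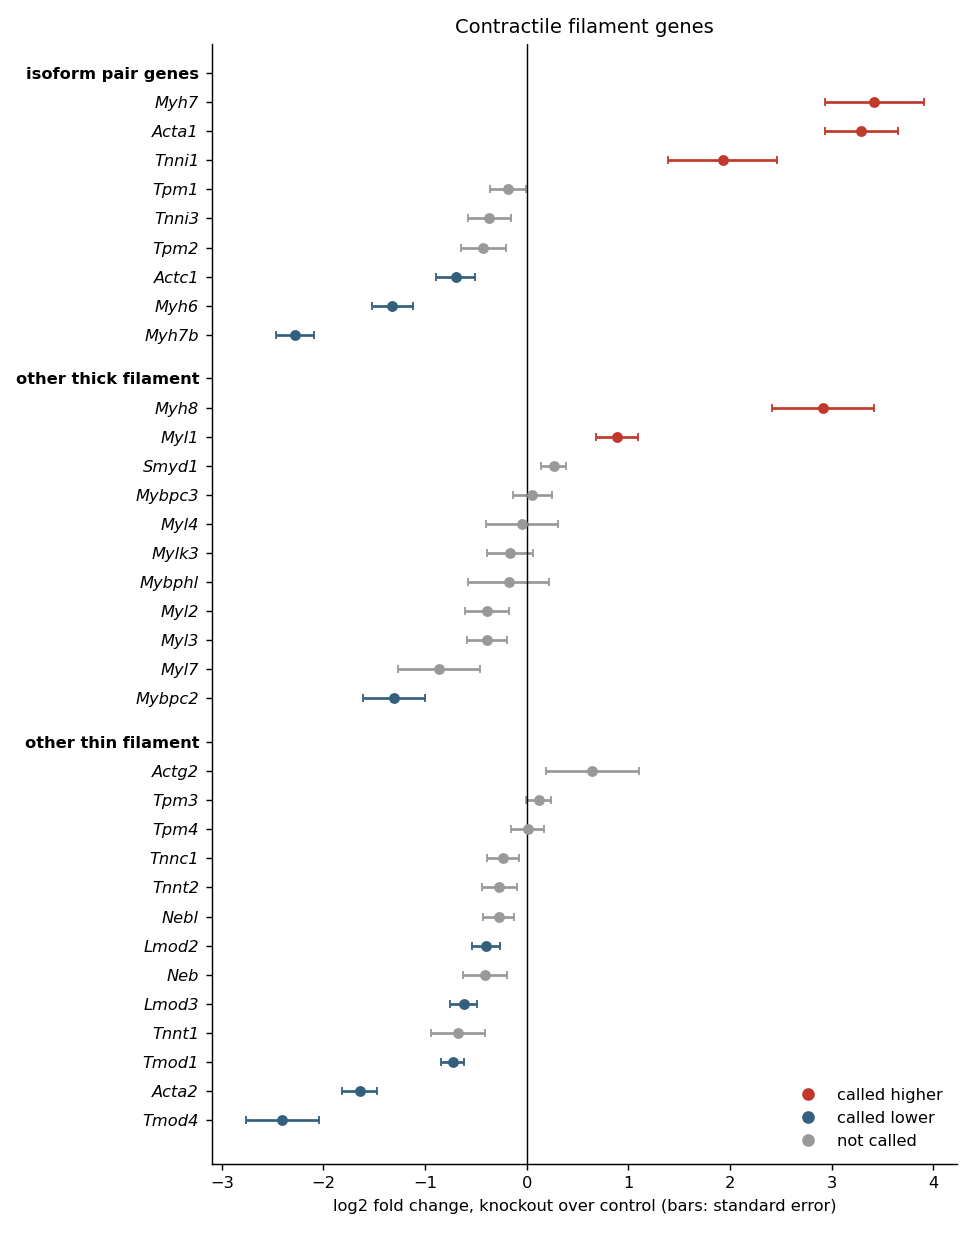
Log2 fold change, knockout over control, of the members and of the tested thick and thin filament genes of the lists, with bars of 1 standard error and colour for the call at adjusted p under 0.05. Myh7, Acta1, Myh8, Tnni1 and Myl1 are called higher, whereas most partners in both filaments lie between -1 and 0.5 without a call.

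Regulators known to act on the choice between these forms were described as a list of 24 genes, of which 23 were tested, 5 rose and 12 fell, beside 18.7% and 17.8% of all genes, with a median log2 fold change of -0.43. Among the genes called higher, Rcan1, a calcineurin inhibitor and calcineurin target, was at 299, 168 and 152 CPM in knockouts and 66.1, 44.6 and 62.4 CPM in controls (log2 fold change 1.84, SE 0.26, edgeR adjusted p = 0.00057). Dio2, the deiodinase that makes active thyroid hormone, was at 22.5, 12.5 and 10.3 CPM in knockouts and 7.22, 2.78 and 4.88 CPM in controls (log2 fold change 1.58, SE 0.35, edgeR adjusted p = 0.0068). Both had all knockouts above all controls. Purb and Pura, single-strand binding proteins that repress Myh6 in cultured rodent heart cells, rose by 0.63 (SE 0.11) and 0.36 (SE 0.12), and the Pura call was lost under DESeq2 and without control 1, control 2, knockout 2 or knockout 3.

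Myocd, the SRF coactivator myocardin, fell by 1.24 on the log2 scale (SE 0.18, edgeR adjusted p = 0.00072). Hdac4, a class IIa histone deacetylase that restrains MEF2, fell by 0.93 (SE 0.13), Mef2d itself by 0.73 (SE 0.14), and Sox6, a repressor of slow fibre genes in mouse skeletal muscle, by 0.73 (SE 0.13). With library size alone Hdac4, Sox6 and Mef2d had -0.23, -0.04 and -0.01 and were not called. The thyroid hormone receptors Thrb and Thra and their partner Rxra, chosen after their values were seen, fell by 0.99 (SE 0.22), 0.43 (SE 0.13) and 0.68 (SE 0.14). With library size alone these stood at -0.29, 0.27 and 0.00 and none was called. The Thra call was also lost in the authors' deposited table (adjusted p = 0.0606) and without control 1, control 2, control 3 or knockout 2, and all 3 calls were lost without knockout 2 and control 2 together.

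**Figure D4:**
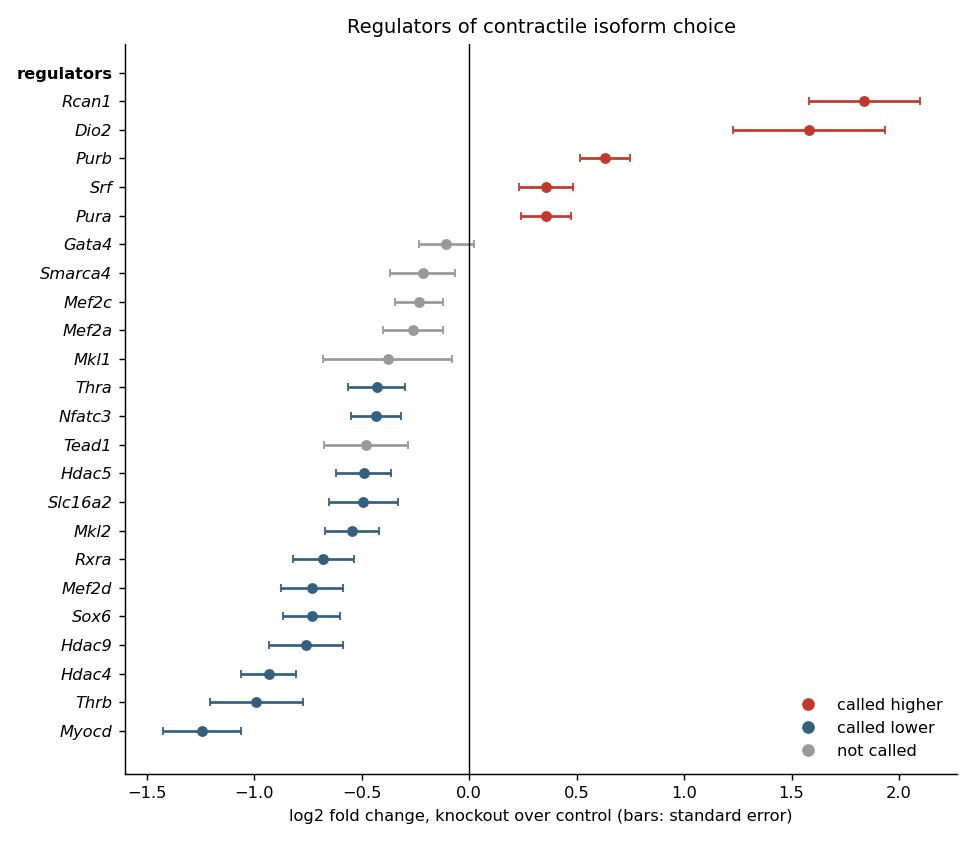
Log2 fold change, knockout over control, of the 23 tested regulators of contractile isoform choice, with bars of 1 standard error and colour for the call at adjusted p under 0.05. Rcan1 at 1.84 and Dio2 at 1.58 stand apart at the high end, and the low end runs from Myocd at -1.24 through Thrb at -0.99 and Hdac4 at -0.93 without a gap.

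The cell-type markers that the tissue could hold were measured beside these results. Their calls are to be read beside the 18.7% of all tested genes called higher and the 17.8% called lower. Summed cardiomyocyte markers were lower, at 55898 to 57939 CPM in knockouts and 72575 to 73421 CPM in controls, with 2 of 10 called lower (Ryr2 and Pln). Most of that sum is Ttn, the giant elastic protein titin, at 43850 CPM in knockouts and 54475 CPM in controls on average, which was not called (log2 fold change -0.31, edgeR adjusted p = 0.306). Smooth muscle markers were at 226 to 301 CPM in knockouts and 547 to 619 CPM in controls, with 1 of 9 called higher and 4 lower, and Acta2 alone was at 95.6 CPM in knockouts and 299 CPM in controls within these sums. Of 12 skeletal muscle markers none could be tested, their sum was 2.21 to 2.55 CPM in knockouts and 1.11 to 2.33 CPM in controls, and Myog and Myod1 were at 0 in all 6 libraries. The lowest knockout level of Acta1 was 331 CPM. Fibroblast markers were at 898 to 1661 CPM in knockouts and 663 to 935 CPM in controls with 1 of 8 higher, and endothelial markers at 461 to 538 CPM in knockouts and 615 to 685 CPM in controls with 4 of 8 lower. Macrophage markers were at 214 to 246 CPM in knockouts and 202 to 221 CPM in controls with 1 of 8 higher. Erythroid markers were at 1452 to 2960 CPM in knockouts and 526 to 1809 CPM in controls with 1 of 7 higher. Among 9 atrial markers 1 was higher (Nppa) and 1 lower (Nr2f2). Their sum, Nppa included, was 3421 to 4891 CPM in knockouts and 381 to 1567 CPM in controls. The part of these differences in the results above was not tested.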

How the data were processed

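Total RNA of 6 mouse hearts, 3 knockout and 3 control, was sequenced, with groups and replicate numbers taken from the sample titles. Per the submitters' processing notes HISAT2 2.0.5, SAMtools 1.5, featureCounts 1.5.1, DESeq2 1.16.1 and mm10 were used, with no role given. The authors deposited unnormalised read counts per gene for each mouse. They also deposited normalised counts, a signal scaled by 1 size factor per library. The authors' deposited table holds a log2 fold change with its SE, a test score, a p-value and an adjusted p-value per gene, and served as an alternative only. The series design gives technical replicates of each mouse, and 1 column per mouse was used.

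Raw counts were fitted with edgeR 4.0.16 (R 4.3.3, quasi-likelihood, TMM, filterByExpr at its default minimum of 10 counts), after testing on simulated data. Calls are at an adjusted p under 0.05, and the SE is the size of the log2 fold change over the square root of F. Loci and exon lengths are from GENCODE M21, in which 51682 of 51875 Ensembl identifiers were found. Ratios were tested with exact permutations (SciPy 1.17.1).

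The members, gene lists and tests were chosen with earlier results of these data known. Genes named are all members, their neighbours with at least 10 counts, up to 4 called genes of each list and direction by adjusted p, and the 3 profiles closest to Myh6 and Myh7. The microRNA genes with fewer counts and the single cell-type markers were named after their values were seen. Within a group, libraries differed by at least 8.13 chi-square units per degree of freedom, so each is 1 replicate. The fit was repeated with library size alone, RLE scaling, TMM on nuclear features, DESeq2 1.42.0, limma-voom (limma 3.58.1), no filter, a filter of 50 counts in 3 libraries, the replicate number as a block, adjusted p under 0.01, each library left out, and the deposited values. Leaving out knockout 2 and control 2 together was chosen after seeing the data, as was adding 1 in place of 0.5 for the Tnni1 over Tnni3 ratio. Counting intervals and floors cover counting error only.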

Additional observations from a re-analysis of the deposited data

How the results depend on the processing

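Of the calls among the 9 genes, those of Myh7, Acta1 and Myh7b held under all 17 alternatives, with log2 fold changes of 2.73 to 4.07, 2.92 to 4.01 and -2.41 to -1.59. Scaling by library size alone, which shifts the median of all tested genes to 0.68, made 8645 genes change (8093 higher, 552 lower) and 9 of the regulators in place of 17, and turned Actc1 to 0.0067, Lmod3 to 0.083, Thra to 0.27 and Rxra to 0.0026. It also turned the summed levels of the pairs to 0.21 for Acta1 and Actc1, 0.33 for Tnni1 and Tnni3 and 0.52 for Tpm2 and Tpm1. An adjusted p under 0.01 left 3006 genes (1591 higher, 1415 lower), 11 regulators and 4 of the 9 genes. Without knockout 2 and control 2 together, 2056 genes (1042 higher, 1014 lower), 6 regulators and 3 of the 9 genes changed, with 2 mice a group. Leaving out single libraries gave 3694 to 5837 genes in all, against 5215, 11 to 20 regulators, and 5 to 7 of the 9 genes. The log2 ratio of Myh7 over Myh6 then ran from 4.26 to 5.22, that of Acta1 over Actc1 from 3.58 to 4.21, that of Tnni1 over Tnni3 from 1.69 to 3.95, and that of Tpm2 over Tpm1 from -0.49 to 0.0045. Without knockout 2 and control 2 together the first 3 ratios were 3.88, 3.80 and 1.86. The cause of these shifts was not tested. At this depth the Tnni1 values rest on 18 control counts, and Tnni1 was not tested under the stricter filter.

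The replicate number did not pair the samples (same-number correlations of -0.20, 0.09 and -0.09). With the replicate number as a block 4293 genes and 5 of the 9 genes changed. Actc1 lost its call there at an adjusted p = 0.0524 (edgeR). The sign-flip p of the Myh7 over Myh6 ratio was 0.25, the smallest possible with 3 pairs, so it cannot decide whether the ratio differed.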
